A study of Mus musculus with 28 samples.

Results

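Adipoq, Lep, Cfd, Retn, Fabp4, Pparg, Lpl, Lipe and Pnpla2, 9 genes with major roles in fat cells, were read in skeletal muscle and liver of obese mice treated with a drug combination. The members were taken by gene symbol, and all 9 were found in each of the 3 deposited tables, which list 54189 genes for muscle at 40 d, 54163 for liver at 40 d and 54501 for 24 h. The mice were male Lepob/Lepob animals on the C57BL/6J background, which carry the obese allele of leptin on both chromosomes. They entered the study at 4 weeks of age and ate the AMLN diet for 20 weeks, with 40% of calories from fat (18.5% as trans-fat), 20% of calories from fructose and 2% cholesterol by weight. The combination groups were injected into the peritoneum each day with 3.0 mg/kg of aspirin (acetylsalicylate) together with 5.0 mg/kg of trimetazidine, and the vehicle groups with the solvent alone. The sample titles read 24 h after injection for the 24 h samples, and treatment or vehicle control for 40 days for the others. They do not say how many injections the 24 h mice received. Genotype and diet were thus common to every group, and no lean or chow-fed animal was analysed here. At 40 d there were 6 vehicle and 6 combination mice per tissue, and at 24 h 1 library per tissue and treatment, 28 samples in all. The labels name the tissue as muscle without saying which muscle was taken or how the surrounding fat was removed.

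White fat cells store triglyceride in a single large droplet and secrete hormones. PPARgamma, encoded by Pparg, switches on most of the genes that define the cell, among them Adipoq and Fabp4. Lipoprotein lipase (Lpl) brings in fatty acids from the blood, while adipose triglyceride lipase (Pnpla2) and hormone-sensitive lipase (Lipe) release them from the stored droplet. Muscle fibres also use Lpl, Pnpla2 and, less, Lipe for their own fuel, and adipocytes lie between muscle fibres and around them. In bulk tissue, fewer fat cells in a piece and less RNA per fat cell cannot be told apart.

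The libraries held 16.1 M to 19.9 M reads on genes in muscle and 16.8 M to 18.9 M in liver at 40 d, and 16.1 M to 17.4 M at 24 h. The members together took 0.209% to 0.875% of the reads in muscle and 0.0382% to 0.0662% in liver. Of the 12 skeletal muscle fibre markers, Acta1 stood at 14906 to 30263 FPKM and 11 were above 1 FPKM in every muscle, but the fast troponin C gene Tnnc2 did not exceed 1.3 FPKM. The 8 hepatocyte markers summed to 153 FPKM in the muscle of vehicle mouse 3_2 and to 3.03 to 26.1 FPKM in the 11 other muscles. Red cell markers summed to 485 to 1015 FPKM in vehicle and 340 to 2348 FPKM in combination muscles. The part of these other tissues in the results was not tested. Levels are FPKM, fragments scaled by exon length and by a factor for each library, and fold changes are differences of the mean log2(FPKM + 1). The factor is not the count of reads on genes. Recovered from the values, it was 15.2 M against 17.4 M reads in muscle 6_1. In muscle 2_3 it was 19.6 M against 18.3 M reads. Every level of a muscle carries its factor.

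Adipoq encodes adiponectin, a hormone made almost only by adipocytes. In vehicle muscles its lowest level was 71.4, its median 127 and its highest 269 FPKM, from 1497 to 7289 reads. In combination muscles the corresponding values were 37.9, 184 and 281 FPKM, from 795 to 6891 reads. The lowest of all was combination mouse 5_2, the next vehicle mouse 6_1, and both groups reached almost the same height with mice 2_3 (vehicle) and 5_5 (combination), so the groups overlapped over nearly their whole range. The mean was 148 ± 67.3 FPKM in vehicle and 174 ± 79.7 FPKM in combination muscles (SD, n = 6 each). The log2 fold change of 0.13 (SE 0.42, 95% interval −0.78 to 1.04) did not pass the test (limma, Benjamini-Hochberg adjusted p = 0.999). The gene lies on chromosome 16, 23146536 to 23158028, plus strand (GRCm38, GENCODE M21). The 250 bases before the RefSeq start of Adipoq and of Lep (GRCm38.p6, plus strand) are shown as a description. For Adipoq (chr16:23146286-23146535) the CCAAT boxes on either strand are in capitals.
Adipoq: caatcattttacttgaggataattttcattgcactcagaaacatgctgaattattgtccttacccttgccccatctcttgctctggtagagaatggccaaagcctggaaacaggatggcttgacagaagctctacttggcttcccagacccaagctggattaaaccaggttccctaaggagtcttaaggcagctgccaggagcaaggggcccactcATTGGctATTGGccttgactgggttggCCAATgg

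Lep encodes leptin, the satiety hormone of adipocytes, and it is the gene that the obese allele inactivates. That allele is known as a nonsense change of an arginine codon, so the promoter is left in place and a transcript can still be counted. In the reference transcript Lep-201 the coding sequence has 167 codons, of which 1, codon 105 in exon 3 of 3, is CGA. It lies at chr6:29070991-29070993 (GRCm38, plus strand) and is printed here in capitals between 12 coding bases on either side, to show where the allele would have to be read. Gene-level values hold no bases, so the level of Lep does not check the genotype.
Lep, codon 105: ctggagaatctcCGAgacctcctccat

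The capitals in the Lep promoter (chr6:29059971-29060220) mark the palindrome TTGCGCAA, a sequence that C/EBP factors can bind, and the TATAA letters, which match on both strands and overlap there.
Lep: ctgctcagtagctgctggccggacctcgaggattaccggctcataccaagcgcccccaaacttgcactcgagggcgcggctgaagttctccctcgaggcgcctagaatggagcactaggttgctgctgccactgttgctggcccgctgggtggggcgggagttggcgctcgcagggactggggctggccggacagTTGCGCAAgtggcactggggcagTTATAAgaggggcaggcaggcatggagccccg

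Searched on both strands, TTGCGCAA occurs in 0.164% of the 32851 mouse promoters of this length, CCAAT in 33.8% and TATAA in 22.8%. The RefSeq table held 10 promoters for 7 of the 9 members. TTGCGCAA was found only in that of Lep, CCAAT in that of Adipoq and 2 of the 3 of Pparg, and TATAA in that of Lep and 1 of Pparg. The motifs were chosen with the sequences in view, and a match is a description of letters.

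Lep reads were plentiful in muscle, 104354 over the 12 libraries at 40 d. Vehicle muscles had a lowest level of 49.0, a median of 146 and a highest of 232 FPKM. Combination muscles had 25.2, 144 and 199 FPKM. Mice 5_2 and 6_1 were again the lowest. Mice 2_3 and 5_5 were again the 2 highest, here with 2_3 on top, and the groups overlapped. Mean levels were 141 ± 63.9 and 138 ± 63.1 FPKM (SD, n = 6 each), a log2 fold change of −0.12 (SE 0.48, 95% interval −1.16 to 0.92, limma adjusted p = 0.999). The full gene spans 29060220 to 29073877 on chromosome 6, plus strand.

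Cfd encodes complement factor D, or adipsin, a serine protease that adipocytes release into the blood. It varied most of the 9 genes, 14.99 times between the lowest and the highest muscle. Vehicle muscles ranged from 95.8 through a median of 117 to 415 FPKM, and combination muscles from 35.9 through 272 to 539 FPKM. The groups overlapped. Of the vehicle muscles only mouse 2_3 was above 200 FPKM, and of the combination muscles only mouse 5_2 was below it, a level chosen after the values were seen. How many of all genes part like this with 1 muscle of each group set aside was not counted. The log2 fold change was 0.51 with an SE of 0.54 (95% interval −0.66 to 1.68, limma adjusted p = 0.999).

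Retn encodes resistin, a hormone of mouse fat cells. Its lowest, median and highest levels were 24.4, 41.9 and 77.7 FPKM in vehicle muscles and 19.4, 44.8 and 114 FPKM in combination muscles. Combination mouse 5_5 stood far above the rest of its group, whose next muscle was at 48.6 FPKM. The log2 fold change was −0.01 (SE 0.36, 95% interval −0.78 to 0.76, limma adjusted p = 0.999).

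Fabp4 encodes the fatty acid carrier aP2, abundant in adipocytes and also present in capillary endothelium and macrophages. It was the most abundant member, with lowest, median and highest levels of 219, 268 and 412 FPKM in vehicle muscles and 146, 327 and 775 FPKM in combination muscles. The next combination muscle after mouse 5_5 was at 369 FPKM, inside the vehicle range. The log2 fold change was 0.21 (SE 0.31, 95% interval −0.45 to 0.88, limma adjusted p = 0.999). The summed endothelial markers were 150 to 166 FPKM in vehicle and 141 to 174 FPKM in combination muscles, and the summed macrophage markers 244 to 366 and 199 to 653 FPKM. Their part in the level of Fabp4 was not tested.

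Pparg was the least abundant member. Its levels were 5.93, 12.1 and 18.1 FPKM (lowest, median, highest) in vehicle muscles and 6.09, 12.01 and 19.0 FPKM in combination muscles, from 266 to 1046 reads. The 2 distributions lay almost on top of each other. The log2 fold change was 0.03 (SE 0.26, 95% interval −0.53 to 0.60, limma adjusted p = 0.999).

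Among the lipases, Lpl was the only one whose median was lower in combination muscles. It ranged from 116 through 152 to 183 FPKM in vehicle and from 83.2 through 124 to 179 FPKM in combination muscles, where 4 of 6 values lay below the vehicle muscles' second lowest, 128 FPKM. The log2 fold change was −0.25 (SE 0.17, 95% interval −0.63 to 0.12), and it did not pass the test (limma adjusted p = 0.999). Lipe levels were 25.6, 37.4 and 65.7 FPKM in vehicle and 15.5, 39.6 and 69.8 FPKM in combination muscles, with a log2 fold change of 0.00 (SE 0.30, 95% interval −0.64 to 0.64). Pnpla2 levels were 153, 176 and 206 FPKM in vehicle and 125, 189 and 340 FPKM in combination muscles, with a log2 fold change of 0.09 (SE 0.20, 95% interval −0.35 to 0.52). In both genes the groups overlapped, and the highest muscle was again that of combination mouse 5_5.

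**Figure D1:**
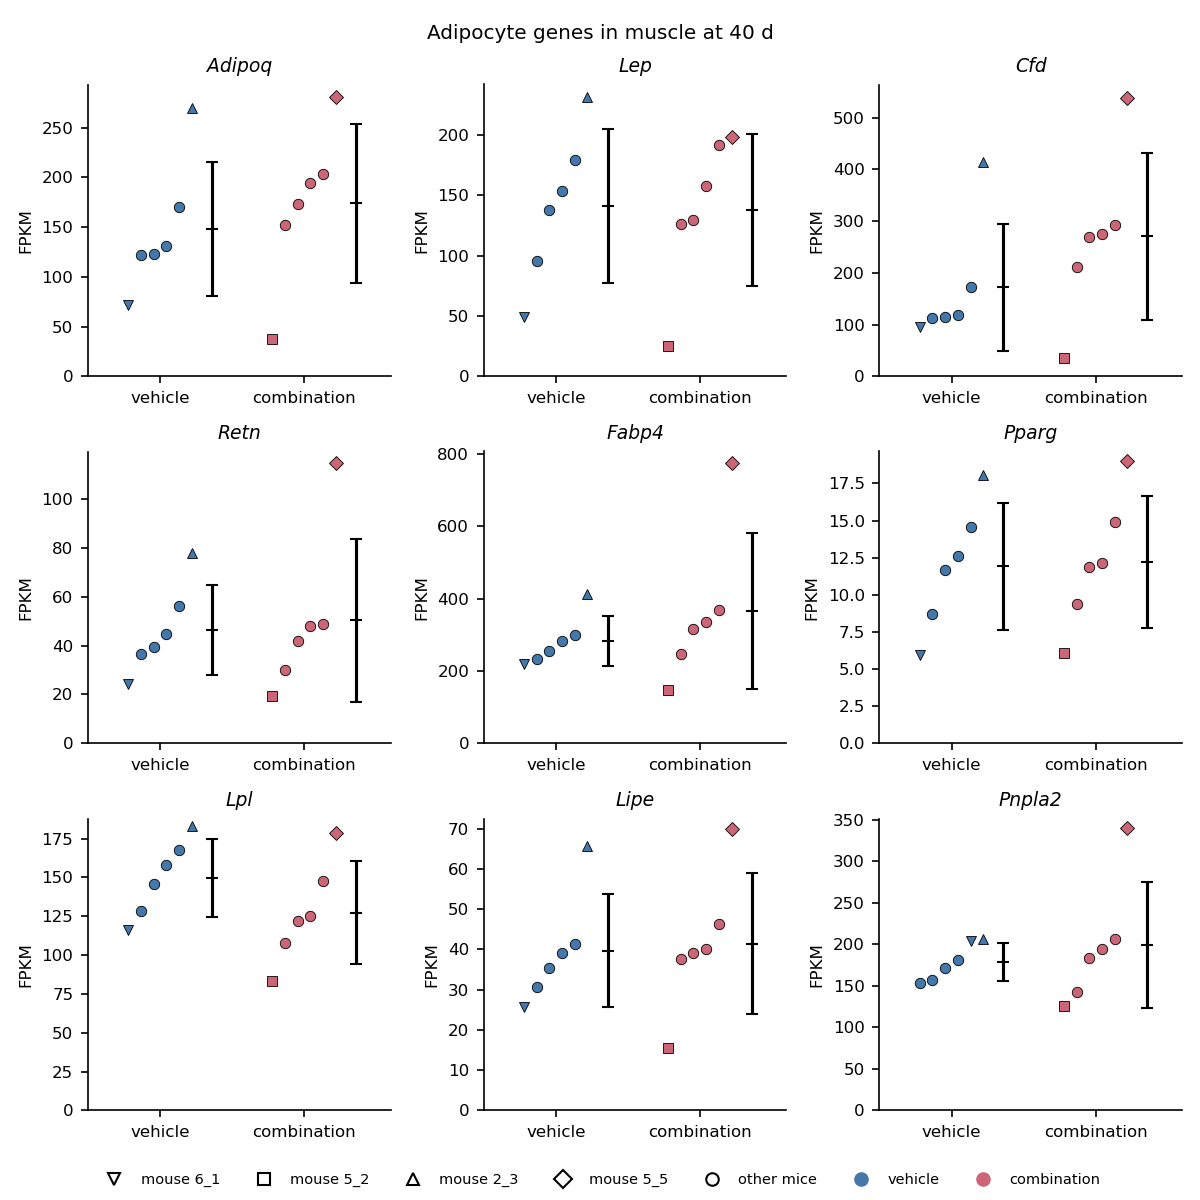
Level of each of the 9 genes in the 12 muscles at 40 d, in FPKM on a linear axis from 0. Each point is 1 muscle, blue for vehicle and red for combination, the bar beside each group is the mean ± SD (n = 6), and 4 mice have symbols of their own. The vehicle muscle of mouse 6_1 and the combination muscle of mouse 5_2 are at the lower end for most genes, and those of mice 2_3 and 5_5 at the upper end.

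The range within each group was wider than the distance between the group means for all 9 genes. Mouse 5_2 had the lowest value of 8 of the 9 genes and mouse 6_1 that of Pparg, while mouse 5_5 had the highest value of 7 genes and mouse 2_3 those of Lep and Lpl. The ratio of the highest to the lowest muscle was 9.18 for Lep, 7.41 for Adipoq, 5.91 for Retn, 5.29 for Fabp4, 4.52 for Lipe, 3.20 for Pparg, 2.72 for Pnpla2 and 2.20 for Lpl. The summed skeletal muscle fibre markers were highest in the same 2 mice that were low in fat genes within their groups, at 76263 FPKM in mouse 6_1 and 67346 FPKM in mouse 5_2. In the other 10 muscles they lay between 40346 and 63159 FPKM. Of the 2 mice with the highest Adipoq, 2_3 had the lowest sum, 40346 FPKM, but 5_5 had 57963 FPKM. Single markers did not all follow the sum. Acta1, Ckm and Mylpf were highest in mice 6_1 and 5_2, but Tnnt3 and Tnni2 in mouse 5_5, at 11741 and 7823 FPKM. Myh4 was at 6572 FPKM in mouse 5_2 but 5153 FPKM in mouse 6_1, and Des at 810 and 1371 FPKM. Mice 5_2 and 6_1 also had the smallest library factors of the muscles, 15.2 M reads each, and a smaller factor raises every level. The part of the factor in the sums was not tested. A relation between the fibre markers and the fat genes was not tested.

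No gene of 11708 tested was called between combination and vehicle muscles at 40 d (0%, limma, adjusted p under 0.05), the 9 members included. At an unadjusted p under 0.05 there were 451 genes, none of them a member. A second tool, voom on the reads recovered from the values, also called 0 genes and had 440 at an unadjusted p under 0.05. The values of combination and vehicle muscles did not overlap for 30 genes (0.256%), and overlapped for 9 of the 9 members. The intervals above show what 6 against 6 muscles with this spread could bound: for Adipoq, Lep and Cfd they include a change of 2-fold, and for the other 6 genes they do not. Without the muscles of mice 6_1 and 5_2, a choice made after the data were seen, the log2 fold change was 0.34 for Adipoq, 0.04 for Lep and 0.89 for Cfd (unadjusted p = 0.031, adjusted p = 0.873, limma). In that fit 613 of 11550 genes had an unadjusted p under 0.05 (limma), and 0 were called. Those 2 muscles held the lowest values of these 3 genes, so the p for Cfd comes from the values behind the choice. It is therefore not a test of a change.

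With the Adipoq level of each muscle as a covariate, also added after the data were seen, the comparison asks whether a gene differs at the same Adipoq level. The SE then fell from 0.54 to 0.14 for Cfd, from 0.48 to 0.19 for Lep and from 0.30 to 0.10 for Lipe. No gene of 11708 was called (0%, limma), and 613 had an unadjusted p under 0.05. Cfd was 0.34 higher on the log2 scale in combination muscles (SE 0.14, 95% interval 0.03 to 0.65, unadjusted p = 0.0327, adjusted p = 0.863). Lpl had a log2 fold change of −0.30 (SE 0.10, 95% interval −0.52 to −0.07, unadjusted p = 0.0139, adjusted p = 0.776). The ratio of Cfd to Adipoq within a muscle was 0.896 to 1.54 in vehicle and 0.948 to 1.92 in combination animals. For the other 6 genes the log2 fold changes at equal Adipoq lay between −0.26 for Lep and 0.13 for Fabp4, and their intervals include 0.

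**Figure D2:**
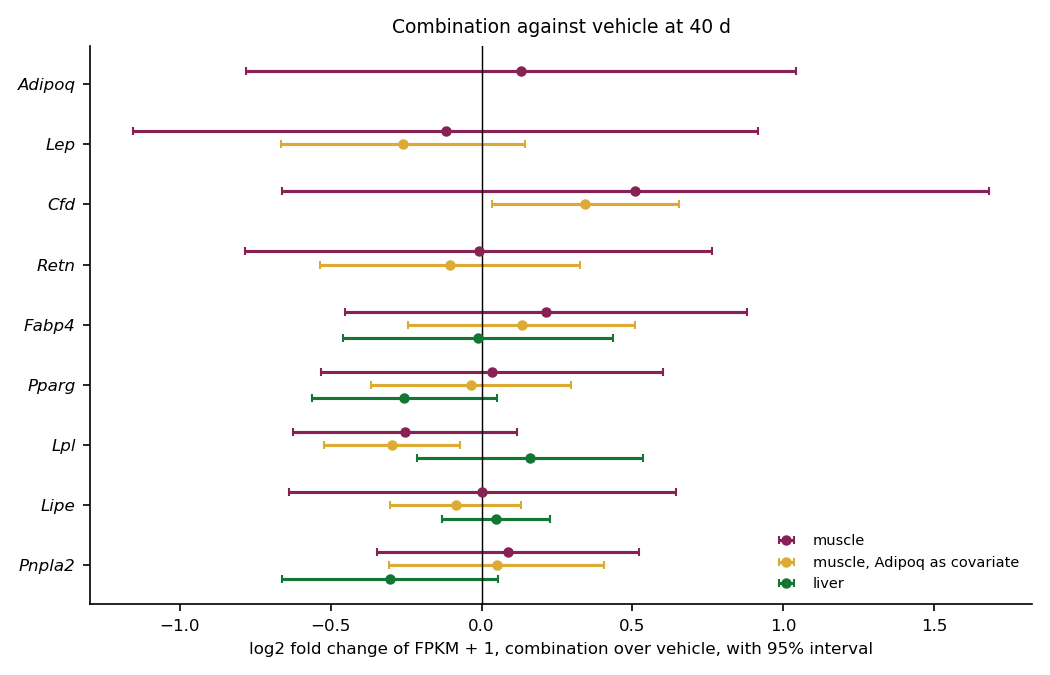
Log2 fold change of FPKM + 1, combination over vehicle, at 40 d, with its 95% interval (limma, n = 6 against 6). Purple is muscle, yellow muscle with Adipoq as a covariate, green liver, where 5 genes were abundant enough to be fitted. The muscle intervals include 0 for all 9 genes, and with the covariate those of Cfd and Lpl do not.

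Each of the other 8 members correlated positively with Adipoq over the 12 muscles, though the rank correlation of Lpl did not pass there. By Pearson's r all 8 passed over the 12 muscles, 6 within the vehicle and 5 within the combination muscles. Pnpla2 passed within neither group by Pearson's r. Over the 12 muscles the log2 level of Adipoq correlated with that of Cfd at Pearson's r = 0.961 (permutation p = 2e-05, adjusted over the 8 pairs 8e-05, Spearman's rho 0.979, p = 1e-05, the smallest the 100000 resamples can give). Lipe, with r = 0.959 (permutation p = 1e-05, adjusted 8e-05, rho 0.846, p = 0.00088), and Lep, with r = 0.924 (permutation p = 0.00019, adjusted 0.000507, rho 0.699, p = 0.0137), came next. All permutation tests were two-sided. Values for the other adipocyte proteins were r = 0.857 for Fabp4 (permutation p = 0.00076, adjusted 0.00101, rho 0.909, p = 0.00011), 0.853 for Retn (permutation p = 0.00051, adjusted 0.000816, rho 0.741, p = 0.00765) and 0.845 for Pparg (permutation p = 0.0005, adjusted 0.000816, rho 0.699, p = 0.014). Pearson's r was lowest for 2 lipases, Lpl at r = 0.754 (permutation p = 0.00492, adjusted 0.00562, rho 0.517, p = 0.0881) and Pnpla2 at r = 0.642 (permutation p = 0.0354, adjusted 0.0354, rho 0.692, p = 0.0156). The differences between these r values were not tested. Apart from Adipoq, 78 of the 11708 genes tested had r above 0.9, members among them. How many of all genes reach the lower r values was not counted. Passing is therefore not shown to be particular to the members.

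Leaving out the muscles of mice 5_2 and 6_1, the farthest from the median of Adipoq, r stayed at 0.967 for Cfd, 0.895 for Lipe, 0.821 for Fabp4, 0.784 for Pnpla2 and 0.748 for Retn. By rank, Cfd, Lipe, Fabp4 and Pnpla2 still passed there, but Retn did not (rho 0.552, permutation adjusted p = 0.168). For Lep it dropped to 0.625, for Pparg to 0.627 and for Lpl to 0.395, which no longer passed (permutation adjusted p = 0.0613, 0.0613 and 0.257), so the calls for these 3 relations rest on those 2 animals. Leaving them out also narrows the range of Adipoq and leaves 10 muscles, and the unadjusted permutation p was 0.0536 for Lep and 0.0534 for Pparg. Within the vehicle muscles r was 0.916 for Cfd and 0.974 for Retn but 0.0793 for Pnpla2 (exact permutation p = 0.875, n = 6), where mouse 6_1 combined low Adipoq with 204 FPKM of Pnpla2. No member passed by rank within the vehicle muscles. The lowest adjusted p was 0.134, for Cfd (rho 0.943, exact permutation), and Retn had rho 0.771. Within the combination muscles r was 0.996 for Cfd, 0.977 for Lipe and 0.784 for Pnpla2 (exact permutation p = 0.00278, 0.00139 and 0.0889, n = 6). Cfd, Lipe, Fabp4 and Pnpla2 passed by rank there, and the other members did not. The slope against Adipoq over the 12 muscles, both on the log2 scale, was 1.28 for Cfd, 1.05 for Lep, 0.72 for Retn, 0.67 for Lipe, 0.62 for Fabp4, 0.52 for Pparg, 0.31 for Lpl and 0.29 for Pnpla2.

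**Figure D3:**
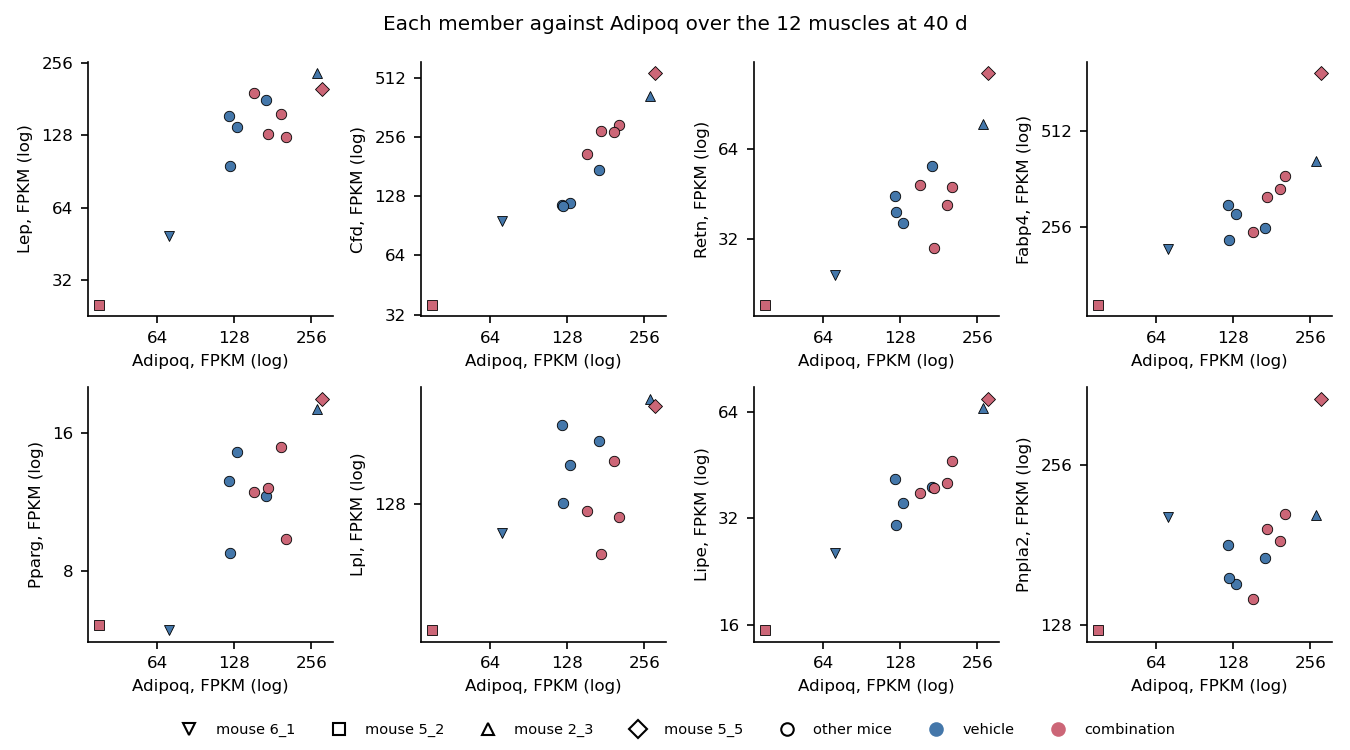
Level of each other gene (vertical) against Adipoq (horizontal) in the 12 muscles at 40 d, both in FPKM on log axes. Each point is 1 muscle, coloured by treatment. Cfd and Lipe lie close to a line, while Lpl and Pnpla2 spread and change less over the same range of Adipoq.

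The genes most like Adipoq over the 12 muscles, with members and predicted symbols left out, were Phgdh (r = 0.988), Cebpa (0.972), Csad (0.971), Slc7a10 (0.968), Sncg (0.966), Cyb5a (0.961), Cd1d1 (0.961) and Acp5 (0.958), out of 11708 genes. Cebpa encodes the C/EBP factor of fat cells, Slc7a10 an amino acid transporter of white adipocytes, and Phgdh the first enzyme of serine synthesis. Phgdh ranged from 3.36 to 27.8 FPKM and Cebpa from 17.7 to 82.6 FPKM. Apart from Adipoq itself, 78 genes had r above 0.9 and 6 had r below −0.9. The 5 genes most like Lep were Serpina3c (0.979), Cdo1 (0.979), Prkar2b (0.972), Prelp (0.971) and Fads3 (0.966). Cdo1 is a cysteine dioxygenase and Prkar2b the regulatory subunit of protein kinase A that prevails in fat. All 13 likeness values are descriptions over the same 12 libraries, chosen as the highest.

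Other genes of white adipocytes were read from a list of 22. All 22 were tested in muscle and 0 passed in either direction (limma). Of them 10 had positive and 12 negative log2 fold changes, and their median was −0.007, beside −0.004 over all genes tested. Scd1, a desaturase, was the most abundant at 2444 ± 1058 FPKM in vehicle and 2062 ± 687 FPKM in combination muscles (SD, n = 6), followed by Cd36, a fatty acid transporter, at 335 ± 43.1 and 312 ± 36.6 FPKM, and Gpd1 at 233 ± 17.0 and 222 ± 41.5 FPKM. Their r with Adipoq over the muscles was 0.848 for Scd1, 0.585 for Cd36 and −0.678 for Gpd1. The level of Gpd1 in muscle is therefore not read as a sign of fat. The lowest unadjusted p-values on the list were those of Agpat2 (0.0325) and Dgat2 (0.0419), enzymes of triglyceride synthesis with log2 fold changes of −0.57 and −0.46 (limma adjusted p = 0.999 each), named after their values were seen. At equal Adipoq, Dgat2 was at −0.52 (SE 0.11, unadjusted p = 0.000559, limma adjusted p = 0.462).

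Of 19 partners and regulators of the lipases, 17 were tested and 0 passed (median log2 fold change −0.08). G0s2, the inhibitor of adipose triglyceride lipase, was the most abundant, at 118 ± 42.8 FPKM in vehicle and 172 ± 106 FPKM in combination muscles. It was followed by Prkaca, the catalytic subunit of protein kinase A, at 69.6 ± 8.07 and 67.5 ± 4.19 FPKM, and by Plin1, the droplet coat protein of adipocytes, at 52.2 ± 23.1 and 47.2 ± 18.6 FPKM. Of 12 partners and cofactors of PPARgamma, 12 were tested and 0 passed (median 0.02). Cebpb stood at 79.3 ± 9.13 and 82.0 ± 16.4 FPKM, Cebpa at 46.9 ± 19.3 and 48.9 ± 21.1 FPKM, and the partner receptor Rxra at 37.0 ± 3.59 and 37.9 ± 2.62 FPKM. Of 9 adipokine receptors, 7 were tested and 0 passed (median −0.01). Adipor1 and Adipor2, the adiponectin receptors, stood at 65.4 ± 7.24 and 37.4 ± 5.07 FPKM in vehicle muscles and at 62.8 ± 5.73 and 38.9 ± 4.47 FPKM in combination muscles. Cap1, a cyclase-associated protein described as a resistin receptor, was at 19.8 ± 1.65 and 19.6 ± 1.78 FPKM. The leptin receptor Lepr was low, 0.688 to 1.42 FPKM over the 12 muscles, and is named here as the receptor of a member.

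Genes of brown adipocytes were mostly low in muscle. Ucp1, the uncoupling protein that defines brown fat, did not exceed 1.03 FPKM, and Cidea was at 2.80 ± 1.20 FPKM in vehicle and 2.96 ± 2.08 FPKM in combination muscles. Of 6 genes on the list, 3 were tested and 0 passed (median −0.02). The 2 others among the 3 most abundant, Cox8b at 684 ± 287 and 703 ± 224 FPKM and Ppargc1a at 5.40 ± 1.62 and 4.31 ± 1.35 FPKM, are also genes of muscle fibres. Fibroblast and fibro-adipogenic progenitor markers summed to 253 to 365 FPKM in vehicle and 217 to 271 FPKM in combination muscles, all 7 had negative log2 fold changes, and 0 passed (limma). An unadjusted p under 0.05 (limma) was reached by 3 of these 7, and by 451 of all 11708 genes. For the 5 red cell markers all log2 fold changes were positive, with 0.90 as their median. An unadjusted p under 0.05 (limma) was reached by 2 of the 5, and 0 passed.

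The order of the members by level depends on the gene length used. By the deposited values the means over the 12 muscles ran from Fabp4 (324 ± 159 FPKM, SD, n = 12) through Cfd (221 ± 146), Pnpla2 (189 ± 54.5), Adipoq (161 ± 71.6), Lep (140 ± 60.6), Lpl (139 ± 30.2), Retn (48.4 ± 25.8) and Lipe (40.6 ± 15.1) to Pparg (12.1 ± 4.16). Cfd and Pnpla2, Adipoq and Lep, and Lep and Lpl are neighbours that changed places often: the first of each pair was higher in 7, 8 and 7 of 12 muscles. Lpl exceeded Retn, and Lipe exceeded Pparg, in 12 of 12. The length in the tables equals the union of all exons of a gene in GENCODE M21 for the 9 members. For Fabp4 (chromosome 3, 10204088 to 10208576, minus strand) this is 4489 bases, the whole span of the gene, because 1 listed transcript keeps its introns, and it is 5.01 times the 896 bases of the principal transcript. For Lpl (chromosome 8, 68880491 to 68907448, plus strand) it is 10478 against 4115 bases.

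With the principal transcript's length in place of the deposited one, an alternative added after the data were seen, Fabp4 would stand at 1625 ± 794, Lpl at 353 ± 76.8 and Pnpla2 at 317 ± 91.6 FPKM, and Lpl would move from the sixth to the second place. Cfd (221 ± 146), Adipoq (172 ± 76.6) and Lep (144 ± 62.3) would hardly change. Comparisons of 1 gene between samples are not touched by its length. Lipe shares 15.6% of its exonic length with 4732471J01Rik on the opposite strand, and whether counting used strand is not stated in the sources at hand, so reads of the 2 genes may not be told apart there.

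In liver at 40 d the genes of the 4 secreted proteins were close to the limit of detection. The 12 livers together held 15 reads of Adipoq, 15 of Lep, 8 of Retn and 118 of Cfd, and 9, 9, 8 and 0 of the livers had no read of them. The 15 Lep reads came from 3 vehicle livers, and the 6 combination livers held 0, a count that allows up to 3 reads over the group. These genes missed the filter on low values and were compared by an exact permutation test over all relabellings of the livers (two-sided), whose smallest possible p is 0.00216. Mean levels in vehicle and combination livers were 0.0809 and 0.0191 FPKM for Adipoq (exact p = 0.455), 0.0418 and 0 FPKM for Lep (exact p = 0.182), 0.0365 and 0.0115 FPKM for Retn (exact p = 0.576) and 0.304 and 0.927 FPKM for Cfd (exact p = 0.152). No difference was detected. The livers of vehicle mice 2_1 and 2_3 held the highest Adipoq, Lep and Retn values, at 0.313 and 0.172, 0.113 and 0.0887, and 0.0684 and 0.151 FPKM.

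The other 5 members were measurable in liver. The 2 tissues were normalised in separate tables, so ratios between them are descriptions. Pparg had nearly the same level in both, 12.1 ± 4.16 FPKM in muscle and 11.1 ± 2.56 FPKM in liver (SD, n = 12 each, ratio 1.09), and the 2 ranges overlapped. Muscle exceeded liver 5.09 times for Pnpla2, 5.81 times for Lpl, 20.3 times for Lipe and 25.4 times for Fabp4, and 3216 times for Adipoq on 15 liver reads. For these genes the lowest muscle was above the highest liver.

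**Figure D4:**
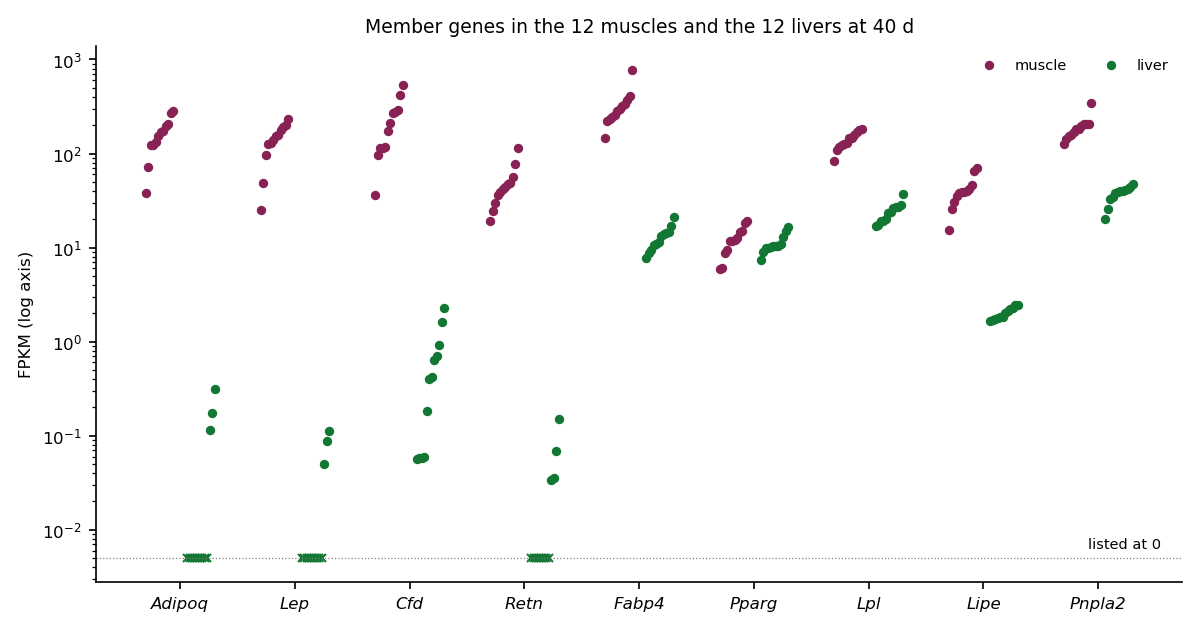
Level of the 9 genes in the 12 muscles (purple) and the 12 livers (green) at 40 d, in FPKM on a log axis. Each point is 1 library sorted by value, and crosses on the dotted line are libraries listed at 0. The 4 secreted proteins differ most between the tissues, and Pparg overlaps.

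None of the members was called in liver. There 28 of 10995 genes were called (0.255%, limma), 11 higher and 17 lower in combination, and 0 of the 5 members tested. Pnpla2 ranged from 34.4 through 39.5 to 47.8 FPKM in vehicle and from 20.1 through 36.1 to 42.3 FPKM in combination livers, with a log2 fold change of −0.30 (SE 0.17, 95% interval −0.66 to 0.05, limma adjusted p = 0.457). Pparg ranged from 9.93 through 10.7 to 16.6 FPKM in vehicle and from 7.45 through 9.98 to 13.0 FPKM in combination livers, with a log2 fold change of −0.26 (SE 0.14, 95% interval −0.56 to 0.05, limma adjusted p = 0.463). The log2 fold changes of Lpl, Lipe and Fabp4 were 0.16 (SE 0.17), 0.05 (SE 0.08) and −0.01 (SE 0.21), and the groups overlapped for each.

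Of the other fixed lists, 1 gene passed in liver. Cidea, a lipid droplet protein of brown fat that fatty livers also make, was at 63.6 ± 19.6 FPKM in vehicle and 25.1 ± 8.19 FPKM in combination livers (SD, n = 6), with 39.3 FPKM in the lowest vehicle and 38.1 FPKM in the highest combination liver. It fell by 1.31 on the log2 scale (SE 0.23, limma adjusted p = 0.0419). The call is a narrow one: leaving out 1 liver at a time gave adjusted p-values of 0.0400 to 0.106, and it was lost for 9 of 12, each but vehicle mouse 6_1 and combination mice 5_1 and 5_2. With no filter on low values the adjusted p was 0.128. Of the 22 white adipocyte genes, 12 were tested in liver and 0 passed, with 10 negative log2 fold changes and a median of −0.33, beside −0.003 over all genes tested. An unadjusted p under 0.05 (limma) was reached by 6 of the 12, and by 1455 of all 10995 genes. Which cells of the liver these levels come from was not tested.

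The difference between the effect in muscle and that in liver was tested for 9436 genes that passed the filter in both, and 1 was called (0.0106%, limma), none of the 5 members. The difference, muscle minus liver, was −0.42 for Lpl (SE 0.25, unadjusted p = 0.112), 0.39 for Pnpla2 (SE 0.27), 0.29 for Pparg (SE 0.31), 0.23 for Fabp4 (SE 0.39) and −0.04 for Lipe (SE 0.32), with a limma adjusted p of 0.997 for each. The effects on these 5 genes were not shown to differ between the tissues. This fit treated the 24 libraries as independent. If a liver and a muscle of the same number share an animal, its SEs and p-values leave that out. No member was called with the mouse number as a block either.

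At 24 h there was 1 muscle library per treatment, so the values describe 2 libraries and have no replicate check. All 9 members were higher in the combination muscle. Adipoq stood at 299 FPKM in the vehicle and 506 FPKM in the combination muscle, Lep at 249 and 340, Cfd at 508 and 1137, Retn at 68.0 and 166, and Fabp4 at 393 and 853 FPKM. Pparg stood at 19.3 and 35.6, Lpl at 123 and 209, Lipe at 59.2 and 120, and Pnpla2 at 185 and 363 FPKM. The ratio was smallest for Lep, 1.37, and largest for Retn, 2.44. On the FPKM + 1 scale 8 of the 9 were at least 1.5-fold higher, as were 811 of 12262 genes at 1 FPKM or more (6.61%).

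**Figure D5:**
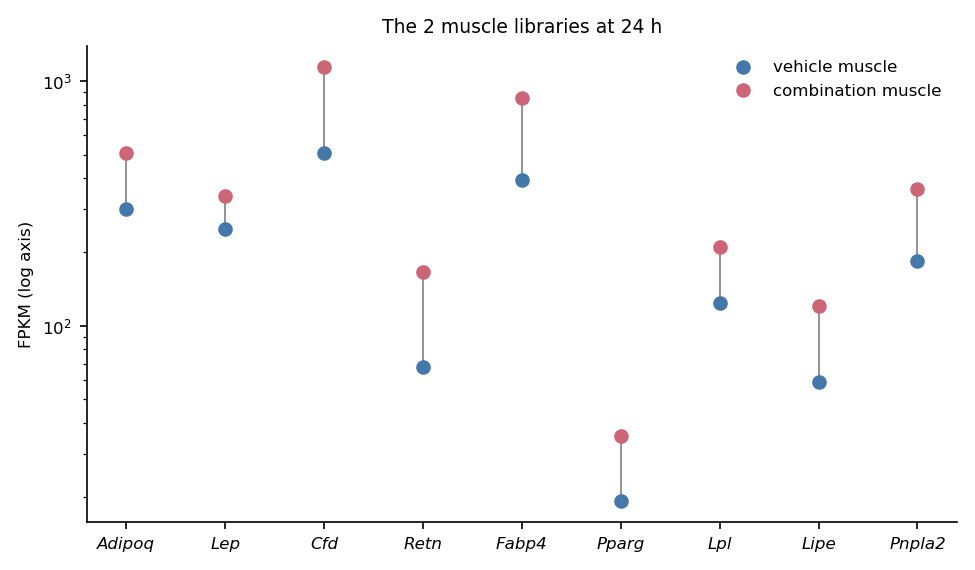
FPKM of the 9 genes on a log axis in the 2 muscle libraries at 24 h, blue for vehicle and red for combination, 1 library each. Red lies above blue for all 9 genes, least for Lep.

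Other tissue markers differed between these 2 libraries as well. Of the 22 other white adipocyte genes 20 were at least 1.5-fold higher in the combination library and 0 lower, with a median log2 ratio of 1.03, beside −0.02 over all genes. The 12 skeletal muscle fibre markers summed to 53636 FPKM in the vehicle and 35042 FPKM in the combination library, but they did not all go 1 way. Of the 10 at 1 FPKM or more, 5 were at least 1.5-fold lower in the combination library and 3 at least 1.5-fold higher. The 8 adipocyte markers, 4 of which are members, summed to 1558 FPKM in the vehicle and 3123 FPKM in the combination library. Mitochondrial genes took 6.94% of the reads in the vehicle and 10.97% in the combination muscle. Hepatocyte markers summed to 116 FPKM in the vehicle and 10.7 FPKM in the combination muscle. The part of these differences between the 2 pieces in the member ratios was not tested, and with 1 library each it cannot be told apart from treatment. In the 24 h livers Adipoq had 0 reads in both libraries and Lep 1 and 0, while Pparg stood at 11.4 and 13.97, Lpl at 16.5 and 16.1, and Pnpla2 at 44.2 and 62.2 FPKM in vehicle and combination.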

How the data were processed

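RNA extracted with Trizol and libraries made with the NEBNext Ultra kit, per the labels' protocols, were read from 3 deposited tables of FPKM values, 1 for each tissue at 40 d and 1 for 24 h, per the file headers. The tables also give another quantity, the gene length in bases, deposited by the authors. Per the submitters' processing notes the build was GRCm38, also called mm10. An aligner, a counter and a strand setting are not stated in the sources at hand. All deposited FPKM values (100%) corresponded to a whole number of reads (tolerance 0.01), and reads were recovered from them. No column of sample values was left unused.

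Genes that reached 1 FPKM in 6 or more of 12 libraries were fitted, tissue by tissue, as log2(FPKM + 1) with limma 3.58.1 in R 4.3.3 (trend on, Benjamini-Hochberg over all genes tested, threshold 0.05). The difference between tissues was an interaction term over the 24 libraries. FPKM values are not counts, so no count test was the main one, and voom on the recovered reads was an alternative. Correlations used 100000 permutations, or all 720 orders within a group of 6. The fits were also run on simulated data with planted changes, in which genes varied independently of each other. Adipocyte genes varied together in these muscles, so that run does not cover such shared variation. Libraries of 1 group differed by more than counting noise in every pair (chi-square per degree of freedom of 12.4 or more). The labels number the mice but do not say that a liver and a muscle of 1 number share an animal, and whether the libraries of a group come from separate cages or days is not stated, so p-values measure the spread between these samples. Python 3.11.15, NumPy 2.4.6 and pandas 2.3.3 were used for the rest.

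The members and the gene lists were chosen with earlier results of these data known. Named genes are the 9 members, the 8 genes most like Adipoq and the 5 most like Lep, and from each list the genes that passed and the 3 of highest mean in muscle, with exceptions marked in the text. Trarg1, on the white adipocyte and adipocyte marker lists, was read as Tusc5, its name in the tables.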

Additional observations from a re-analysis of the deposited data

Results flagged for a closer look

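In 3 of the 30 groups of 6 values examined (each gene in each tissue and treatment at 40 d with enough reads), 1 sample stood apart by Dixon's criterion, which chance meets in about 1 of 20 groups. Cfd was at 415 FPKM in the vehicle muscle of mouse 2_3, against 173 FPKM in the next vehicle muscle and 95.8 FPKM in the lowest, a gap of 0.757 of the range. Retn was at 114 FPKM in the combination muscle of mouse 5_5, against 48.6 FPKM in the next (0.692 of the range). Fabp4 was at 775 FPKM in the same muscle, against 369 FPKM in the next (0.646 of the range). Mice 2_3 and 5_5 are also those with the highest Adipoq.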

How the results depend on the processing

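The count of genes called in muscle, 0, became 2 with TPM scaling and 1 with quantile normalization. Leaving out 1 mouse gave 0 to 1, with 1 only without vehicle mouse 6_1. The count in liver, 28, became 0 with no filter on low values. Leaving out 1 liver gave 0 to 83: 83 without combination mouse 5_2, 0 without 2_3 or 5_3, 1 without 3_2, 2 without 2_1, 8 without 2_5, 13 without 5_5, 15 without 2_4 or 6_1, 16 without 5_4, 17 without 5_1 and 22 without 4_5. The count for the difference between tissues, 1, became 3 with no filter and 0 to 2 when 1 mouse was left out, with 0 without 5_3, 5_4 or 5_5 and 2 without 2_4, 6_1, 4_5, 5_1 or 5_2. With the mouse number as a replicate block it was 3. The labels do not say that a number marks 1 animal. Livers and muscles of the same number had correlations of deviations between −0.08 and 0.45, above 0.1 for 7 of 12, and 6 of 12 correlated best with their own number, a hint of pairing from the data. The level of 0.1 is no test of pairing. Because the labels do not establish the pairing, the block was kept as an alternative.

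No member was called under any of these alternatives in muscle, liver or the difference, and the lowest adjusted p was 0.751, 0.303 and 0.664. The sign of small log2 fold changes in muscle was not stable. Leaving out 1 mouse gave −0.054 to 0.52 for Adipoq, −0.39 to 0.31 for Lep, −0.29 to 0.21 for Retn, −0.040 to 0.44 for Fabp4, −0.13 to 0.20 for Pparg, −0.17 to 0.25 for Lipe and −0.082 to 0.20 for Pnpla2. For Cfd it gave 0.24 to 1.01 and for Lpl −0.36 to −0.14, with no change of sign. Fabp4 in liver had −0.16 to 0.11 and Lipe in the difference −0.24 to 0.22. The sign also turned without both mice 6_1 and 5_2 for Lep (0.043) and Retn (0.052), with TPM scaling for Retn (0.032), with Adipoq as a covariate for Pparg (−0.035) and Lipe (−0.086), and for Lipe with a pseudocount of 0.1 (−0.000294) and with voom (−0.000987). The cause was not tested.

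By Pearson's r, the correlations with Adipoq no longer passed for Fabp4 (0.835) and Pnpla2 (0.0793) within vehicle. Within combination they no longer passed for Lep (0.944), Retn (0.808) and Pnpla2 (0.784). Without the 2 muscles farthest from the median they no longer passed for Lep (0.625), Pparg (0.627) and Lpl (0.395). Within a group there are 6 muscles, fewer than in all. With a pseudocount of 0.1 all 8 passed by Pearson's r. At 24 h a pseudocount of 0.1 moved the log2 ratio by 0.1 or more only in liver, for Lep (−0.24, 1 read against 0) and Retn (−1.56, 5 reads against 0), where depth sets the value. With 15 reads or fewer over 12 livers, depth limits every statement on Adipoq, Lep and Retn there.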

Other observations

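Other cell types varied from muscle to muscle as well, in genes named after their values were seen. The macrophage markers summed to 653 FPKM in the combination muscle of mouse 4_5, whose Adipoq level was 204 FPKM, and to 199 to 424 FPKM in the 11 others, and Lyz2 was at 382 FPKM in that muscle. Nnat, an imprinted gene on the white adipocyte list, ranged from 1.40 to 73.0 FPKM over the 12 muscles.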
